A study of Homo sapiens with 6 samples.

Results

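Collagen chain genes and the enzymes that modify collagen were taken by gene symbol from the expression values of a human culture whose label, SKOV3, is that of a line from ovarian carcinoma. The symbols were those of the COL families with a chain number, LOX and LOXL1 to LOXL4, P4HA1 to P4HA3 and PLOD1 to PLOD3, and they picked 55 of the 20030 genes listed: 44 collagen chains and 11 enzymes. RNA came from 6 samples, 3 of cells kept for 24 h in vehicle (5% trehalose) and 3 of cells kept for 24 h with recombinant human CCL20 (rhCCL20) in that vehicle, so trehalose was present in both groups. CCL20 is a chemokine that acts through the receptor CCR6, and the comparison asked what the chemokine does to the transcriptome of the line. The labels state neither the concentration of rhCCL20 nor whether replicates were separate cultures, so the spread behind the p-values may be technical. All values are FPKM, fragments per unit of transcript length and of sequencing depth, a scale on which levels can be compared between genes of different length.

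Collagens are secreted proteins in which chains rich in glycine and proline wind around each other into a helix. Fibrillar collagens build tensile fibrils, type IV collagen builds the sheet of basement membranes, and FACIT collagens sit on the surface of fibrils. Inside the cell, prolyl 4-hydroxylases (P4HA) stabilise the helix and lysyl hydroxylases (PLOD) prepare lysines for sugars and crosslinks. Outside the cell, lysyl oxidases (LOX) form the crosslinks. Fibroblasts are the usual source of fibrillar collagen, while epithelial cells mostly make basement membrane chains.

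Markers of carcinoma identity were read in the cells. The keratin KRT8 lay between 605 and 677 FPKM and the mesenchymal filament gene VIM between 323 and 349 FPKM, while the epithelial adhesion gene EPCAM stayed at or below 0.052 FPKM, the Mullerian factor PAX8 at or below 0.287 FPKM and the receptor ERBB2, known to be amplified in SKOV3, at 7.23 to 9.20 FPKM. KRT18 lay between 529 and 619 FPKM, KRT19 at or below 0.130 FPKM and the epithelial cadherin CDH1 at or below 0.310 FPKM. The level of ERBB2 was near the middle of the genes tested below, between COL4A6 (7.04 FPKM, percentile 44.0) and LOXL2 (11.2 FPKM, percentile 57.5). The identity of the line was not tested, and no name beyond the label is used below. Summed FPKM lay between 301805 and 310080 per library, and the absolute depth is unknown. Depth relative to vehicle replicate 1, read from the spacing of low values, lay between 0.941 and 1.09 and was highest in rhCCL20 replicates 2 and 3, so values close to 0 are read with caution. The library of rhCCL20 replicate 3 stood apart, at 11.7 on the first principal component against -3.96 to -0.74 for the others, so results are also given without it.

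Type IV collagen genes lie in head-to-head pairs, each pair reading away from a short shared stretch. The stretches are shown because the genes of each pair differed several-fold in level although they start from the same piece of DNA. They are from RefSeq on GRCh38.p14, plus strand, with capitals at matches to CCAAT or GGGCGG on either strand. TATAAA was also searched and had no match in them. Between the RefSeq starts lie 379 bases for COL4A6 and COL4A5 and 418 bases for COL4A4 and COL4A3, so only parts are shown for these pairs. Between COL4A1 and COL4A2 the whole stretch of 126 bases between the RefSeq starts is given (chr13:110307158-110307283), between COL4A6 and COL4A5 the 250 bases before the start of COL4A5 (chrX:108439588-108439837), and between COL4A4 and COL4A3 the 111 bases between the GENCODE gene boundaries (chr2:227164454-227164564).
COL4A1-COL4A2: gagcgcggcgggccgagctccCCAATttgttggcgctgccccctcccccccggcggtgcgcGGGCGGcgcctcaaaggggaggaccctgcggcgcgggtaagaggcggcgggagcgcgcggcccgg
COL4A6-COL4A5: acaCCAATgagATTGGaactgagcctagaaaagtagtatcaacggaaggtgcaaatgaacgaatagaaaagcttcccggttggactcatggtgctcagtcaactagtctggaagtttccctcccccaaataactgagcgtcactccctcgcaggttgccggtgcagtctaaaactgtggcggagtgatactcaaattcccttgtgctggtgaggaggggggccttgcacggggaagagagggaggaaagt
COL4A4-COL4A3: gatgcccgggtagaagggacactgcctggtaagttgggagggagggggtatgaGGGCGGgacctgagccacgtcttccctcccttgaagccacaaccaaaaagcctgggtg

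The stretches differ in base composition. That of COL4A1 and COL4A2 is 80.2% G and C with 20 CG dinucleotides, that of COL4A6 and COL4A5 is 51.2% G and C with 8, and that of COL4A4 and COL4A3 is 61.3% G and C with 3. CCAAT occurs once in the first and on both strands, close together, in the second. Among RefSeq start windows of the same length, 21.1% hold CCAAT at 126 bases and 32.0% at 250 bases, and GGGCGG, found once in the first and once in the third, is held by 34.6% at 126 bases and 32.9% at 111 bases. The windows end at the start, whereas the COL4A4 and COL4A3 stretch stops short of the RefSeq start of COL4A3. The matches describe the letters only.

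Basement membrane chains made up the largest class of collagen transcripts. COL4A5, which forms helices with COL4A6 or with COL4A3 and COL4A4, was the highest chain of all, with 24.0, 23.4 and 23.7 FPKM in the vehicle libraries (replicates 1 to 3 in order, as throughout) and 24.5, 23.8 and 25.3 FPKM in the rhCCL20 libraries. Its partner COL4A6 was at 7.32, 6.59 and 7.22 FPKM in vehicle and 6.94, 6.45 and 7.72 FPKM with rhCCL20. The groups overlapped for both genes. COL4A2 was at 15.4, 15.4 and 16.4 FPKM in vehicle and 16.1, 15.4 and 16.8 FPKM with rhCCL20, and COL4A1, the chain that supplies most of the common type IV helix, was at 3.23, 3.12 and 3.23 FPKM and 3.26, 3.06 and 3.34 FPKM. COL4A4 and COL4A3, known from the basement membranes of kidney and lung, averaged 1.43 and 0.502 FPKM over the 6 libraries.

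Within each pair the ratio of levels varied little between libraries. COL4A2 stood at 4.76 to 5.08 times COL4A1 over the 6 libraries, with a mean of 4.92 ± 0.16 in vehicle and 5.00 ± 0.047 with rhCCL20 (SD, n = 3 each). COL4A5 stood at 3.27 to 3.70 times COL4A6, and COL4A4 at 2.70 to 3.16 times COL4A3. For all 3 ratios the groups overlapped. Such ranges were not particular to these pairs. On separate chromosomes, P4HA1 stood at 3.87 to 4.03 times P4HA2 and PLOD2 at 2.49 to 2.71 times PLOD1, while COL9A3 ranged more widely, at 2.94 to 3.96 times COL9A2. COL4A1 and COL4A2 overlap on opposite strands in GENCODE, COL4A1 on chromosome 13 from 110148963 to 110307233 (minus) and COL4A2 from 110305812 to 110513209 (plus). The sources used here do not give the counting strand, so reads in the shared part cannot be assigned with certainty.

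**Figure D1:**
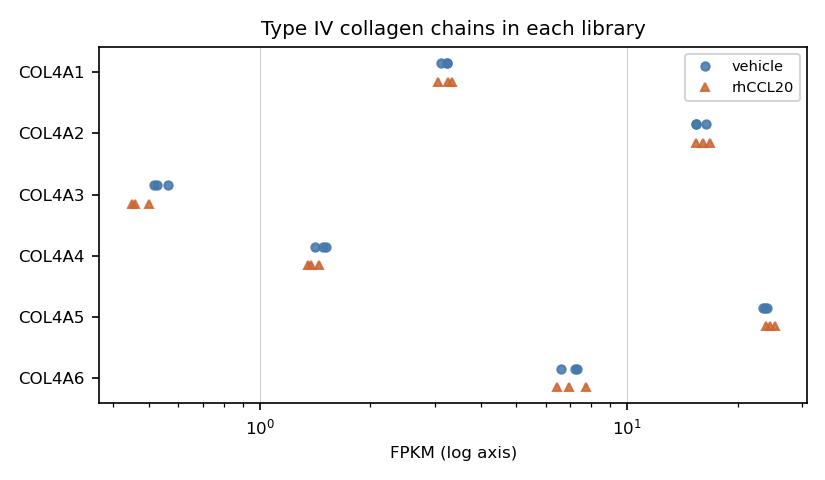
FPKM (log axis) of the 6 type IV chains, with circles for the 3 vehicle libraries and triangles for the 3 rhCCL20 libraries. COL4A5 and COL4A2 sit highest, COL4A3 lowest, and the libraries of a gene lie much closer together than the genes do.

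Among the fibrillar chains, COL5A1 and COL5A2 of type V were abundant and COL5A3 was not, and of the type I chains COL1A1 alone was above trace level. COL5A2 was at 23.4, 22.8 and 22.9 FPKM in vehicle and 21.8, 21.5 and 23.1 FPKM with rhCCL20, and COL5A1 at 19.4, 18.4 and 20.6 FPKM and 19.6, 17.6 and 21.7 FPKM. These chains form type V collagen, which starts and thins fibrils, and COL5A2 stood at 1.06 to 1.24 times COL5A1. COL5A3, the third type V chain, averaged 0.347 FPKM over the 6 libraries. COL1A1, the main chain of type I collagen, was at 1.83, 1.96 and 2.01 FPKM in vehicle and 2.26, 1.70 and 1.91 FPKM with rhCCL20. Its usual partner COL1A2 reached 0.0081 and 0.0084 FPKM in vehicle replicates 1 and 2 and was listed at 0 in the other 4 libraries. COL1A1 lies on chromosome 17 from 50183289 to 50201632 (minus strand, GENCODE on GRCh38). COL3A1, the chain of type III collagen, which accompanies type I in most connective tissue, averaged 0.099 FPKM over the 6 libraries, and COL2A1 of cartilage 0.016 FPKM.

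FACIT chains were led by COL12A1, which links fibrils to the surrounding matrix, at 23.1, 21.7 and 24.1 FPKM in vehicle and 22.8, 20.7 and 24.98 FPKM with rhCCL20. The groups overlapped, with the lowest and the highest value both in rhCCL20 libraries. COL9A3 and COL9A2, cartilage-type FACIT chains, averaged 4.29 and 1.23 FPKM, while COL9A1, the chain that completes type IX collagen, was listed at 0 in all 6 libraries. A like gap appeared in type VI, the beaded filament collagen: COL6A1 averaged 2.78 FPKM, COL6A2 averaged 0.043 FPKM and COL6A3 was listed at 0 in all 6 libraries. COL7A1, the chain of the anchoring fibrils that hold epithelium to the tissue below, was at 12.4, 11.9 and 13.2 FPKM in vehicle and 11.9, 10.3 and 8.51 FPKM with rhCCL20. COL18A1, a basement membrane collagen whose end fragment is endostatin, averaged 1.48 FPKM.

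The collagen transcripts were concentrated in few genes. Of the 44 chains 7 averaged at least 5 FPKM over the 6 libraries, 8 lay between 1 and 5 FPKM, 7 between 0.1 and 1 FPKM and 15 below 0.1 FPKM. The other 7 were listed at 0 in all libraries, namely COL6A3, COL6A6, COL8A1, COL9A1, COL11A1, COL13A1 and COL19A1. The 5 highest chains, COL4A5, COL12A1, COL5A2, COL5A1 and COL4A2, held 72.2% of the summed FPKM of all chains. By class, type IV held 35.9% and the 11 fibrillar chains 32.5%. The 10 FACIT chains held 20.1%, and the group of types VII, XXVI and XXVIII, almost all of it COL7A1, held 7.94%.

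**Figure D2:**
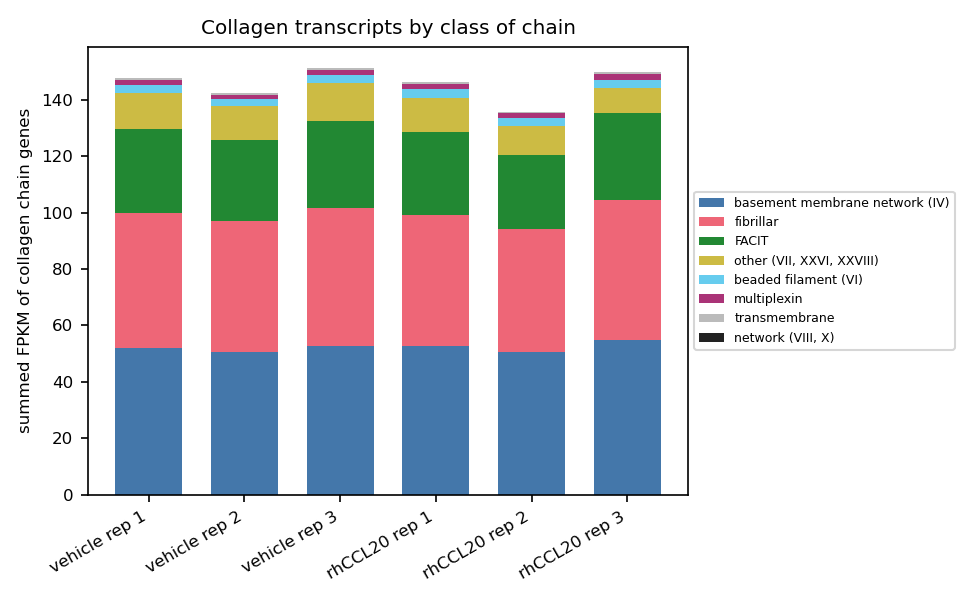
Stacked bars of the summed FPKM of the 44 collagen chain genes in each library, split by class of chain. The bars run from 136 FPKM in rhCCL20 replicate 2 to 151 FPKM in vehicle replicate 3, and the type IV and fibrillar parts are the largest in all 6 libraries.

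The 3 PLOD genes were the highest of all 55. PLOD2, the lysyl hydroxylase that acts on the telopeptides of fibrillar collagen and is known as hypoxia-inducible, led them, at 80.2, 76.2 and 80.0 FPKM in vehicle and 81.1, 83.1 and 83.4 FPKM with rhCCL20. Its groups did not overlap. PLOD1, which acts mainly on the helix, was at 30.3, 30.3 and 32.2 FPKM in vehicle and 31.0, 30.6 and 33.0 FPKM with rhCCL20. PLOD3, which also attaches sugars to hydroxylysine, was at 26.1, 26.8 and 26.5 FPKM and 27.2, 25.7 and 29.4 FPKM. The groups of both overlapped, and both were highest in rhCCL20 replicate 3. P4HA1, the main catalytic subunit of prolyl 4-hydroxylase, was at 17.3, 17.1 and 17.05 FPKM in vehicle and 17.6, 18.2 and 19.4 FPKM with rhCCL20, again with groups that did not overlap. P4HA2 averaged 4.50 FPKM and P4HA3 0.456 FPKM. The ratio of P4HA1 to P4HA2 lay between 3.87 and 4.03 in the 6 libraries. PLOD2 lies on chromosome 3 from 146069440 to 146163653 and P4HA1 on chromosome 10 from 73007217 to 73096974, both on the minus strand (GENCODE on GRCh38).

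Of the lysyl oxidases, LOXL2, which also acts on type IV collagen, averaged 11.2 FPKM and LOX 6.87 FPKM. LOXL2 was at 11.8, 10.2 and 11.2 FPKM in vehicle and 10.8, 10.7 and 12.2 FPKM with rhCCL20, and LOX at 6.76, 7.23 and 6.46 FPKM and 6.97, 6.61 and 7.16 FPKM. The groups overlapped for both. LOXL1, tied to elastic fibres, and LOXL4 averaged 1.55 and 1.40 FPKM, and LOXL3 averaged 0.339 FPKM. LOXL2 overlaps ENTPD4 (6.21 FPKM) on the same strand in GENCODE, so that reads in the shared part could be counted for either gene whatever the strand setting. Other genes overlap an expressed gene on the opposite strand, so that unstranded reads could be shared: LOX with SRFBP1 (5.78 FPKM), PLOD3 with ZNHIT1 (27.8 FPKM), P4HA2 with SLC22A4 (5.53 FPKM), COL9A3 with TCFL5 (7.28 FPKM) and COL18A1 with SLC19A1 (3.50 FPKM).

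**Figure D3:**
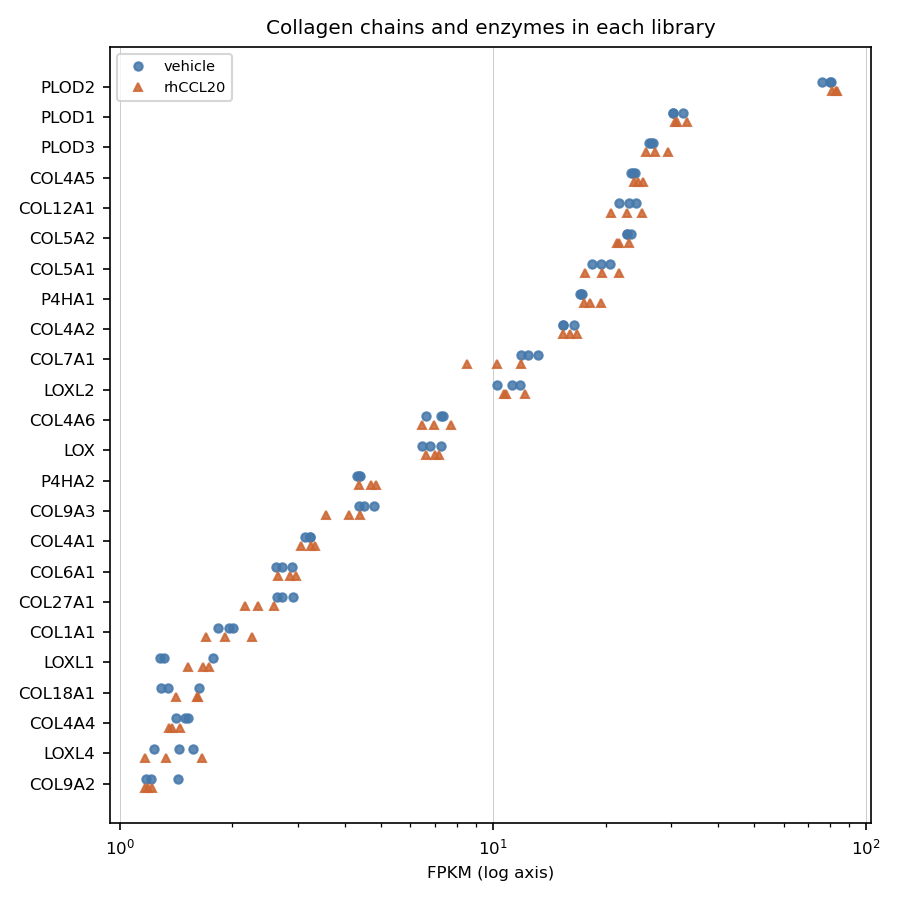
FPKM (log axis) in each library of the 24 genes that reached 1 FPKM in at least 3 libraries, ordered by mean, with circles for vehicle and triangles for rhCCL20. PLOD2 is highest at 76.2 to 83.4 FPKM and COL9A2 lowest at 1.16 to 1.43 FPKM, and the groups lie on top of each other for most genes.

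With rhCCL20, no collagen chain and no modifying enzyme passed the test. Of the 55 genes 24 reached 1 FPKM in at least 3 libraries, 15 chains and 9 enzymes, and the other 31 were not tested. With limma on log2(FPKM + 1) and Benjamini-Hochberg adjustment over all 10263 genes tested, 0 of the 24 passed, where 0.00974% of all genes did. The smallest adjusted p among them was 0.937 in limma. At an unadjusted p under 0.05 there were 2 of 24 (8.33%), where 4.73% of all genes were. The log2 fold changes ran from -0.27 to 0.11, on a scale that understates changes of low genes, with 15 genes above 0 and 9 below. Their median was 0.01, the same as the 0.01 of all genes tested, of which 57.8% were above 0.

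The intervals were narrow. For 23 of the 24 genes the 95% interval allowed a change of FPKM + 1 of less than 1.25-fold up or down, as it did for 9750 of the 10263 genes tested, and for all 24 it allowed less than 1.5-fold. The exception at 1.25-fold was COL7A1. Of the 15 chains 7 were above 0 and 8 below, and their median log2 fold change was 0.00. The 9 enzymes had a median of 0.05, with 8 above 0 and LOXL4 below. Without rhCCL20 replicate 3 the median of the chains was -0.06 and that of the enzymes 0.00, with 4 of the 9 enzymes above 0, and the median of all genes tested was 0.00. Without it 2 of the 24 had an unadjusted p under 0.05 in limma, where 6.05% of all genes did, and 0 passed. These were COL7A1 and COL5A2, the latter at a log2 fold change of -0.09 and an unadjusted p of 0.0386 in limma, against -0.06 and 0.193 with all libraries. The excess of enzymes above 0 was thus not present without that library. Over all genes tested, those above 0 also fell, from 5936 of 10263 to 5026 of 10210. Summed over the 44 chains, collagen transcripts came to 144 ± 7.3 FPKM with rhCCL20 against 147 ± 4.4 FPKM in vehicle (SD, n = 3 each), and the groups overlapped.

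**Figure D4:**
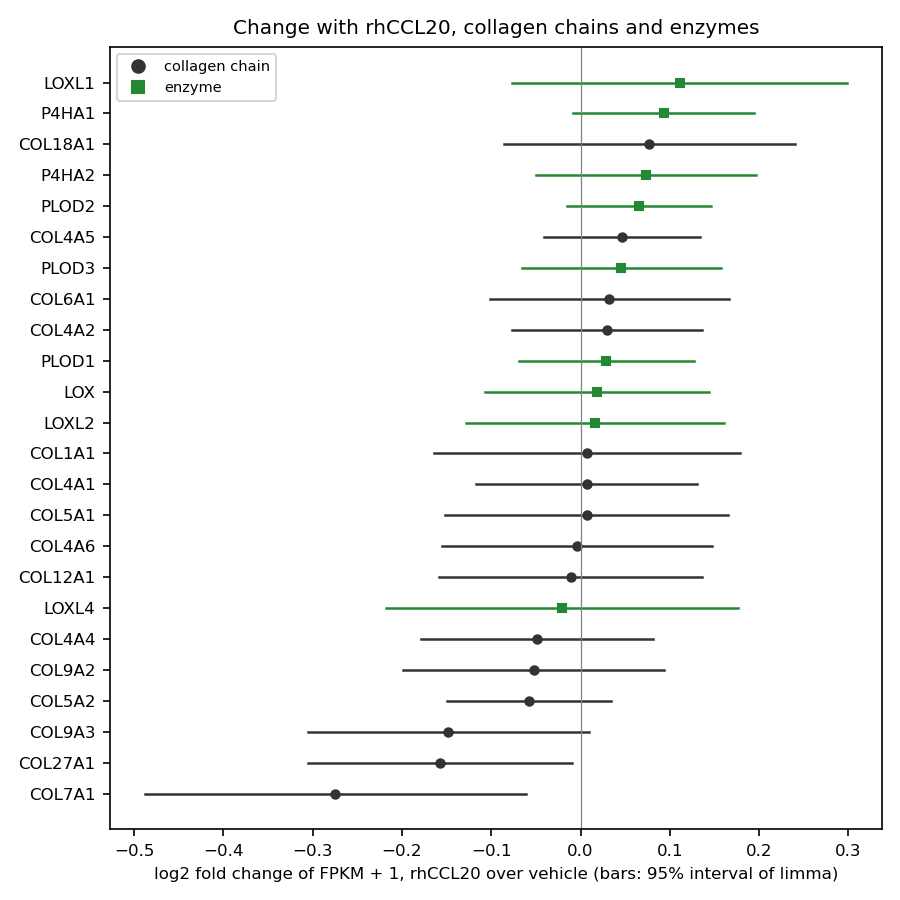
log2 fold change of FPKM + 1, rhCCL20 over vehicle, of the 24 tested genes with the 95% interval of limma (bars), circles for collagen chains and squares for enzymes. The intervals of 22 genes include 0, and those of COL7A1 and COL27A1 lie below it.

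COL7A1 had the smallest p of the tested chains. Its values given above had means of 10.2 ± 1.7 FPKM with rhCCL20 and 12.5 ± 0.66 FPKM in vehicle (SD, n = 3 each), and the groups touched, with rhCCL20 replicate 1 at 11.90 and vehicle replicate 2 at 11.89 FPKM. The log2 fold change was -0.27 (SE 0.095, 95% interval -0.49 to -0.06), with an unadjusted p of 0.0168 and an adjusted p of 0.937 in limma. Without rhCCL20 replicate 3, where the gene was lowest, it was -0.16, with an unadjusted p of 0.0349 and an adjusted p of 0.813 in limma. COL7A1 lies on chromosome 3 from 48564073 to 48595267 (minus strand, GENCODE on GRCh38).

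COL27A1, a fibrillar chain of cartilage, was at 2.71, 2.64 and 2.90 FPKM in vehicle and 2.59, 2.35 and 2.16 FPKM with rhCCL20. All rhCCL20 libraries lay below all vehicle libraries. Its log2 fold change was -0.16 (95% interval -0.30 to -0.01), with an unadjusted p of 0.0395 and an adjusted p of 0.937 in limma, and without rhCCL20 replicate 3 it was -0.11, with an unadjusted p of 0.109 in limma. COL9A3 was at 4.51, 4.36 and 4.79 FPKM and 4.39, 3.57 and 4.11 FPKM, with groups that overlapped through rhCCL20 replicate 1. Its log2 fold change was -0.15, with an unadjusted p of 0.0621 in limma. Without rhCCL20 replicate 3 it was -0.16, with an unadjusted p of 0.0595 in limma, and without rhCCL20 replicate 2 it was -0.08.

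Groups that did not overlap were seen for 3 of the 24 tested genes (12.5%), where 11.0% of all genes tested had such groups. PLOD2 and P4HA1 were higher with rhCCL20, where 6.88% of all genes were, and COL27A1 was lower, where 4.13% were. The mean of PLOD2 was 1.05 times that in vehicle, its log2 fold change 0.07 (95% interval -0.01 to 0.15) and its adjusted p 0.937 in limma. The mean of P4HA1 was 1.07 times that in vehicle, its log2 fold change 0.09 (95% interval -0.01 to 0.19) and its adjusted p 0.937 in limma. Without rhCCL20 replicate 3 the log2 fold change of P4HA1 was 0.06.

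Of the 31 genes under the filter 24 were above 0 in some library. Of these 3 (12.5%) had all rhCCL20 libraries below all vehicle libraries, where 4.63% of the 6092 such genes in the files did, and 0 had them all above, where 3.46% did. COL16A1, a FACIT chain, was at 0.986, 0.916 and 0.970 FPKM in vehicle and 0.861, 0.668 and 0.825 FPKM with rhCCL20. COL4A3 was at 0.562, 0.526 and 0.516 FPKM and 0.448, 0.5001 and 0.459 FPKM. COL3A1 was at 0.084, 0.268 and 0.124 FPKM and 0.058, 0.031 and 0.030 FPKM, a level near 0 at which few fragments decide the value and which relative depth touches. None of the 3 was tested.

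Single libraries stood out in these genes. Of the tested 24, 14 were highest in rhCCL20 replicate 3 (58.3%), where 37.1% of all genes tested were highest in that library. In rhCCL20 replicate 2, 9 of the 24 were lowest and 0 highest, where 20.0% of all genes tested were lowest and 15.4% highest. COL5A1, COL12A1, COL4A6, COL4A1, LOXL4 and PLOD3 were each lowest in rhCCL20 replicate 2 and highest in rhCCL20 replicate 3. For them these libraries of the same group stood at opposite ends. COL7A1 and COL27A1 were instead lowest in rhCCL20 replicate 3. Over the 6 libraries the highest value was 1.55 times the lowest for COL7A1, the widest of the 24, and 1.08 times for COL4A5, the narrowest.

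**Figure D5:**
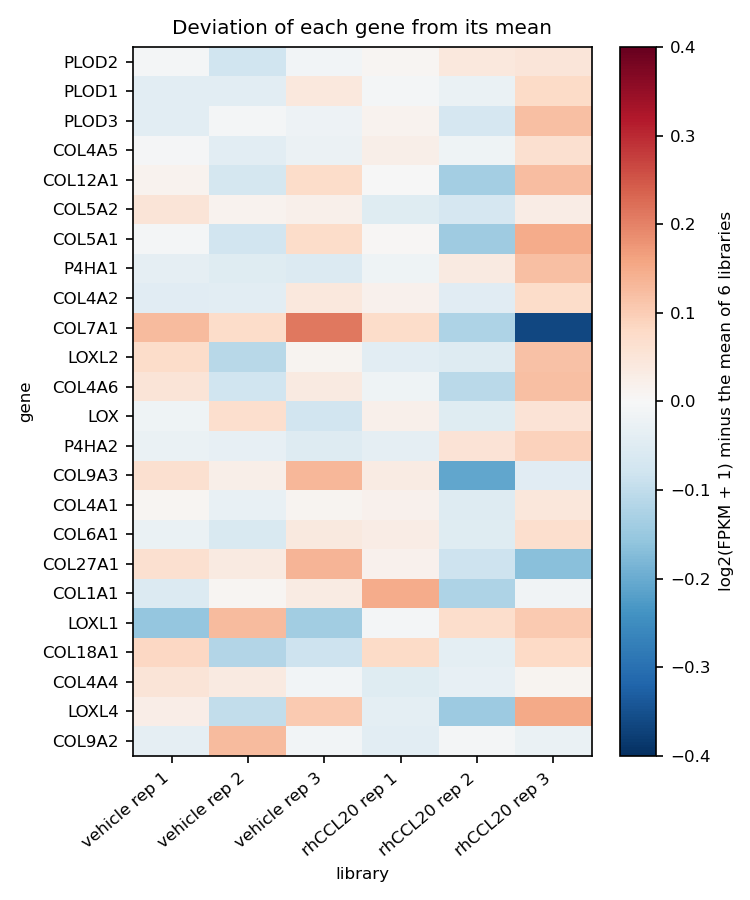
Heat map of log2(FPKM + 1) minus its mean over the 6 libraries for the 24 tested genes (rows, by level) in each library (columns), red above and blue below the mean. COL5A1, COL12A1 and LOXL4 are among the genes lowest in rhCCL20 replicate 2 and highest in rhCCL20 replicate 3, where COL7A1 has its lowest value.

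The wider machinery of collagen folding and secretion was measured beside these genes. Of its 35 listed genes 29 were tested and 0 passed. An unadjusted p under 0.05 in limma was found for 1 of the 29, where 4.73% of all genes tested had one. The median log2 fold change was 0.00, with 15 above 0 and 14 below. The collagen chaperone SERPINH1 was at 81.9 ± 2.6 FPKM with rhCCL20 against 81.5 ± 2.2 FPKM in vehicle, and P4HB, the partner subunit of the P4HA enzymes, at 170 ± 2.5 against 172 ± 4.7 FPKM (SD, n = 3 each). The general chaperones CALR and HSP90B1 and the isomerase PPIB were the highest of the list, at means in vehicle of 384, 283 and 296 FPKM. PCOLCE2, an enhancer of procollagen cleavage, had the smallest p, at 26.4 ± 0.16 FPKM with rhCCL20 against 24.4 ± 0.82 FPKM in vehicle (SD, n = 3 each). Its log2 fold change was 0.11, with an unadjusted p of 0.0169 and an adjusted p of 0.937 in limma. PCOLCE2 and COLGALT1 had all rhCCL20 libraries above all vehicle libraries, 2 of the 29, where 6.88% of all genes tested did. In the other direction there were 0 of the 29, where 4.13% of all genes tested were. ADAMTS2, the protease that removes the amino end of fibrillar procollagens, averaged under 0.1 FPKM in both groups.

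Receptors and matrix partners of collagen gave the same count. Of 22 listed collagen receptors and turnover genes 9 were tested. Of these 0 had an unadjusted p under 0.05 in limma, 0 passed, and the median log2 fold change was 0.02. ITGB1, the shared subunit of collagen-binding integrins, was at 112 ± 3.6 FPKM with rhCCL20 and 108 ± 3.3 FPKM in vehicle (SD, n = 3 each), with PEPD and FURIN next in level at means in vehicle of 23.4 and 23.2 FPKM. Of 24 collagen-binding matrix genes 13 were tested, again with 0 past the threshold in limma, 0 at an unadjusted p under 0.05 and a median of 0.01. FBLN1, FBN2 and LAMC1 were the highest, at means in vehicle of 74.8, 49.4 and 39.2 FPKM, and the laminin LAMB1 had the smallest p, with a log2 fold change of -0.06 and an adjusted p of 0.937 in limma.

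Markers of cell types that make collagen were also read. The 10 fibroblast markers summed to 8.79 to 9.82 FPKM in vehicle and 8.35 to 9.62 FPKM with rhCCL20, with LUM as the highest at 4.07 to 4.94 FPKM. PDGFRB was at 1.68 to 2.15 FPKM, ACTA2 at 0.978 to 1.65 FPKM, DCN at 0.727 to 1.02 FPKM and FAP at 0.462 to 0.694 FPKM. The other 5 were at or below 0.134 FPKM in each library, among them PDGFRA, a defining receptor of fibroblasts, at or below 0.0089 FPKM. Of the fibroblast markers not tested, DCN had all rhCCL20 libraries below all vehicle libraries, and THY1 had them all above. Of the genes under the filter and above 0 in some library, 4.63% had them all below and 3.46% all above. The carcinoma marker CDH1 and the mesothelial marker DES, also not tested, likewise had them all below. So did the tested KRT8 and MSLN, where 4.13% of all genes tested did. The 7 mesothelial markers summed to 38.4 to 40.6 FPKM in vehicle and 35.9 to 36.9 FPKM with rhCCL20, most of it MSLN. KRT5 was at 8.88 to 9.91 FPKM, UPK3B at 1.41 to 2.14 FPKM, and CALB2 was listed at 0 in all 6 libraries. The 6 endothelial markers summed to at most 1.26 FPKM in a library. Most of it was CDH5, the only one tested, at 0.782 to 1.11 FPKM, and KDR was at 0 in all. The 6 leukocyte markers summed to 12.5 to 17.5 FPKM in vehicle and 14.8 to 16.9 FPKM with rhCCL20, most of it the lysosomal gene CD68, with PTPRC at or below 0.391 FPKM. The macrophage lysozyme gene LYZ was at 5.24, 0.692 and 0.469 FPKM in vehicle and 3.58, 2.92 and 4.27 FPKM with rhCCL20, with groups that overlapped through vehicle replicate 1. Its log2 fold change was 0.87, with an unadjusted p of 0.0765 and an adjusted p of 0.937 in limma, and without vehicle replicate 1 it was 1.53, with an adjusted p of 0.00317 in limma (adjusted p of 0.716 to 1.0 in the other alternatives). In bulk RNA, fewer cells of a type and less RNA per cell cannot be told apart. With all libraries 0 of the tested markers in these 4 lists passed in limma. In limma an unadjusted p under 0.05 was found for 1 of the 3 tested mesothelial markers (MSLN, log2 fold change -0.10). It was found for 0 of the 3 fibroblast, 1 endothelial and 2 leukocyte markers tested. Of all genes tested, 4.73% had one. The part of other cells in the collagen values was not tested.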

How the data were processed

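Total RNA of 6 samples was extracted with Trizol and made into libraries with an Illumina TruSeq RNA kit, per the labels' protocols. Trimmomatic, HISAT2, Cufflinks, HTSeq and the build GRCh38 are named in the submitters' processing notes, without versions or roles. The authors deposited FPKM per gene symbol and library, per the file headers. The sources used here do not give annotation, filters, strand or depth, so no counting intervals are given.

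Each gene that reached 1 FPKM in 3 or more libraries entered a limma fit (version 3.58.1, R 4.3.3, eBayes with trend) of log2(FPKM + 1) on group alone, with a Benjamini-Hochberg adjusted p of 0.05 as the threshold. An exact test of 3 against 3 libraries cannot give a p below 0.1. The procedure was tested on simulated data. Positions are from GENCODE on GRCh38 and sequences from RefSeq (41 of 55 genes matched). The genes and lists were chosen with earlier results of these data known. All 55 genes are accounted for. Values in each library are given for those with a mean of at least 5 FPKM, an unadjusted p under 0.05 or, from 1 FPKM, groups that do not overlap. Of each related list the gene with the smallest p and up to 3 highest of those tested are named. Further genes serve as examples, chosen after their values were seen.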

Additional observations from a re-analysis of the deposited data

How the results depend on the processing

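In every alternative run (pseudocounts of 0.1 and 0.5, no filter or one at 5 FPKM, quantile and median-ratio normalization, eBayes without trend or robust, a replicate block, and each library left out) 0 collagen or enzyme genes passed, with a smallest adjusted p of 0.716 in limma. The count over all genes, 1, was 0 with no filter (861 at an unadjusted p under 0.05 in limma) and 1 to 3 with a library left out, the 3 without vehicle replicate 1. The count in the related lists and markers was 0 to 1 there, the 1 being LYZ without vehicle replicate 1. The replicate block left 1 gene in all and 0 of the 24. Deviations of libraries with the same number had correlations of -0.10, 0.03 and 0.10, and those with different numbers of -0.12 to 0.13. No pairing was thus visible, but such correlations cannot show that the libraries were handled without pairs. Of 349 alternative fold changes of the 24 genes 323 kept their direction and 26 changed sign, all in genes within 0.05 of 0 as reported. With quantile normalization COL4A1 was -0.0003, COL5A1 -0.0059 and LOXL2 -0.0057, and with median-ratio scaling COL1A1 was -0.0005, COL4A1 -0.0025 and COL5A1 -0.0049. With each library left out, log2 fold changes ran from -0.0757 to 0.0547 for COL12A1, -0.0655 to 0.071 for COL1A1, -0.0134 to 0.034 for COL4A1, -0.0645 to 0.0492 for COL4A6, -0.0651 to 0.0795 for COL5A1, -0.015 to 0.0564 for LOX, -0.0387 to 0.0575 for LOXL2, -0.1021 to 0.0468 for LOXL4, -0.003 to 0.0572 for PLOD1 and -0.0039 to 0.0904 for PLOD3. The cause was not tested. The median of the 24, 0.012, and the ratio of summed collagen FPKM, 0.979, moved by less than the spread between libraries, but neither kept its direction. The median was -0.0018 with no filter (48 genes) and -0.0088 to 0.052 with a library left out, lowest without rhCCL20 replicate 3 and highest without rhCCL20 replicate 2. The ratio was 0.9592 to 1.0067 with a library left out, above 1 without rhCCL20 replicate 2. Unknown depth limits genes under 1 FPKM.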
